A study of Homo sapiens with 6 samples.

Results

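The ATP-binding cassette (ABC) transporters were described in polysome-bound RNA of OSRC-2 cells, a clear cell renal cell carcinoma line that lacks the VHL tumor suppressor. Members were the rows whose gene symbol is ABC followed by a subfamily letter from A to G and a number, which gave 41 of the 30345 rows in the authors' deposited table. Of these, 30 carried an adjusted p-value and are called tested here, of 15634 tested genes in all. The rule used symbols only, though the family and the functional lists below were taken up with earlier results of these data known. TAP1 and TAP2, peptide transporters of the same superfamily with other names, fall outside the rule.

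The series compared 3 libraries of cells treated with PT2399, an inhibitor of the hypoxia-inducible factor HIF2, at 2 µM for 72 h with 3 libraries of vehicle (DMSO) cells. VHL is lost in both groups, so HIF2 is stabilized in the vehicle cells. The comparison shows which polysome-bound RNAs differ after 72 h of PT2399. Whether a change depends on HIF2 itself was not tested in this series. RNA came from the pooled gradient fractions heavier than the monosome peak. One cell line and 1 dose were used, and the treatment label gives 2 mM where the protocol gives 2 µM.

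ABC proteins use ATP hydrolysis at a pair of nucleotide-binding domains to move lipids, sterols, drugs, conjugated metabolites, heme precursors and peptides across membranes. Full transporters carry all domains on a single chain, others carry 1 set and work in pairs, and the ABCE and ABCF proteins have no membrane domain and work on ribosomes and translation. In the kidney, several B, C and G members sit in the proximal tubule, where they secrete drugs, urate and organic anions into the urine. HIF proteins bind DNA at the short core ACGTG or GCGTG, called a hypoxia response element core.

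The windows below show the 250 bases before a RefSeq start site of 4 members: ABCC2 and ABCB1, which are drug exporters that were higher with PT2399, ABCA1, the sterol exporter that was higher, and ABCA2, the member with the smallest p-value among those that were lower. They are from RefSeq on GRCh38.p14, 5′ to 3′ on the gene's strand, and capitals mark ACGTG or GCGTG read on either strand. The ABCC2 window lies at chr10:99782390-99782639 (plus), that of ABCB1, before its downstream start, at chr7:87600885-87601134 (minus), that of ABCA1 at chr9:104928156-104928405 (minus) and that of ABCA2 at chr9:137028923-137029172 (minus).
ABCC2: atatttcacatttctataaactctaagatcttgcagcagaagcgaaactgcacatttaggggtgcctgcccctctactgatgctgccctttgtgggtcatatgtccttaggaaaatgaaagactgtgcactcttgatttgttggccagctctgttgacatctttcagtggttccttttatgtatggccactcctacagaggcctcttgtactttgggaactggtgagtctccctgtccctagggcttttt
ABCB1: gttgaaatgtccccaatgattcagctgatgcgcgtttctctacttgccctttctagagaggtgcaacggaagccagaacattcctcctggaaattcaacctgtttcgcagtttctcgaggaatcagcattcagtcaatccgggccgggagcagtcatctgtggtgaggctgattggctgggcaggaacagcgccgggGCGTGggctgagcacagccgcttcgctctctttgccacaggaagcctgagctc
ABCA1: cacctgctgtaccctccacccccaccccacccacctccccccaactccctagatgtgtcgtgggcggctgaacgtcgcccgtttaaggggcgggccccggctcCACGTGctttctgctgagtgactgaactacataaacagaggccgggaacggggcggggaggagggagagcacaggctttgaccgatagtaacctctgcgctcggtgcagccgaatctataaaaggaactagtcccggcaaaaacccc
ABCA2: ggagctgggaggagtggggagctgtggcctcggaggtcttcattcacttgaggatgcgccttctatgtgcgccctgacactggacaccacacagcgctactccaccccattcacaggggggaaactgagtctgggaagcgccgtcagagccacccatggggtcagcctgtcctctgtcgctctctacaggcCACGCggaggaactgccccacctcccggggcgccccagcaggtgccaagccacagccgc
The ABCC2 window held no core. ABCB1 had 1 core 53 bases before the start, ABCA1 had the palindrome CACGTG, which reads as a core on both strands, and ABCA2 had 1 core on the opposite strand. Of all 35116 RefSeq windows of this length, 43.2% held a core and 6.34% held CACGTG. The members had 49 such windows, of which 55.1% held a core and 16.3% held CACGTG. Their median GC content was 61.6%, against 58.0% over all windows, and these shares were not adjusted for it. Some windows of the same gene overlap, as for ABCG2, and hold the same CACGTG. Some genes have several windows, so by gene, for which no background was computed, 22 of the 32 members with a window held a core in at least 1, among them 4 of the 6 higher members with a window, both lower members and 13 of the 16 members that were not called. ABCC5 is a higher member without a core, as is ABCC2. These matches are letters in a window and not sites of binding.

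A gene was called higher or lower when the adjusted p of the authors' DESeq2 Wald test was at most 0.05. By this rule 8 members were higher with PT2399 and 2 were lower, while 20 of the 30 tested were not called. The share called was 33.3% of the tested members, beside 23.0% of all tested genes. Higher calls took 26.7% of members and 11.3% of all genes, and lower calls took 6.67% of members and 11.7% of all genes. At an adjusted p of at most 0.01, 26.7% of members and 16.3% of all genes were called. No tested member reached a log2 fold change of 1 in size, which 2.05% of all tested genes did with an adjusted p of at most 0.05. The median log2 fold change was 0.11 over the tested members and 0.00 over all tested genes, and 19 members had a positive value and 11 a negative one. These counts are descriptions of the 30 members, and no test of the group was made.

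**Figure D1:**
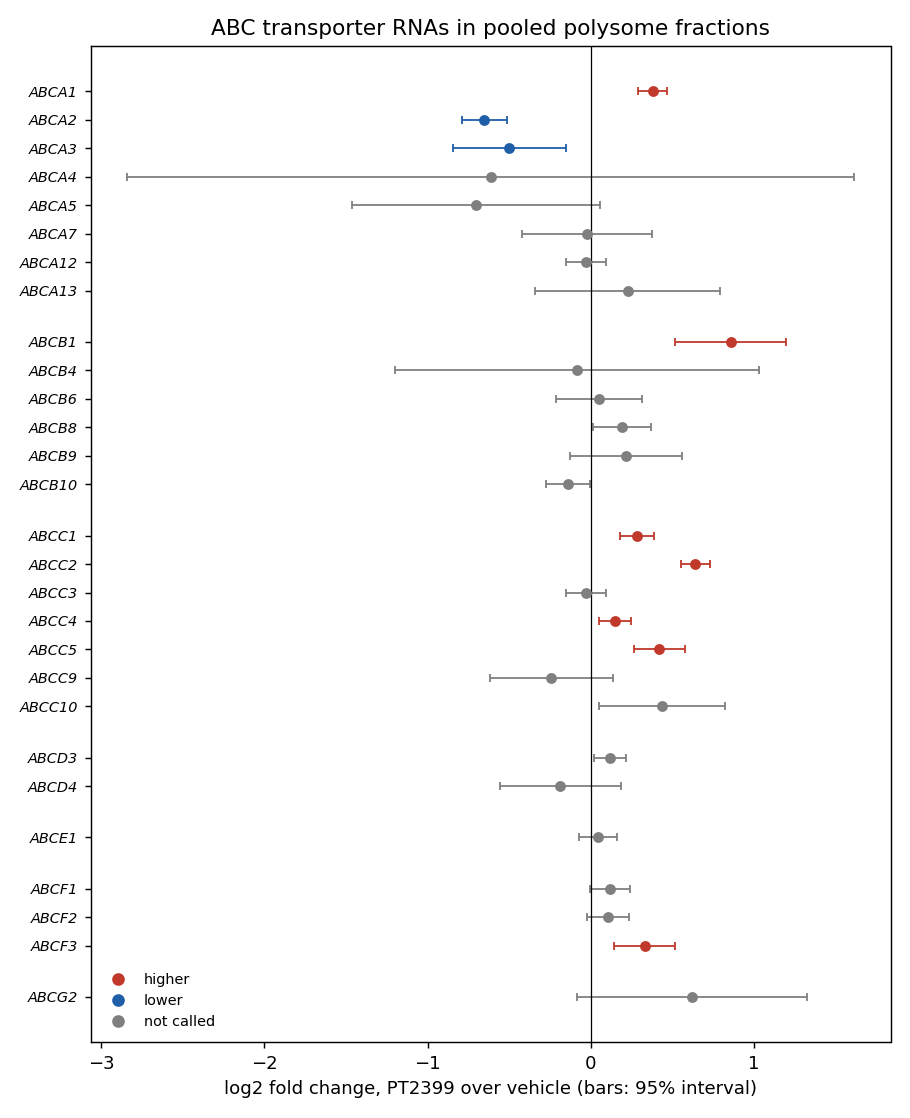
Log2 fold change of PT2399 over vehicle (horizontal axis) for 28 tested members, grouped by subfamily A to G from top to bottom, with bars for the 95% interval of the fit to 3 libraries per group. The members called higher (red) lie at 0.15 to 0.86 and the 2 called lower (blue) at -0.65 and -0.50, and the widest intervals belong to ABCA4, ABCB4 and ABCA5 among the members not called (grey).

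The levels given below are normalized counts for each group, worked out from the mean over both groups and the fold change in the table, which holds no value for a single library. The spread between libraries enters only through the fitted standard error (SE) of the fold change, and whether the libraries of each group overlap cannot be seen. The level of an RNA in the polysome pool depends on its amount in the cell as well as on its ribosome loading, and these cannot be told apart here. Because counts are normalized, a level is relative to the rest of the pool. A change in cell number or in total RNA per cell cannot be seen.

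Among the drug exporters, 5 of the 8 tested were higher, none was lower and 3 were not called. Of all tested genes, 11.3% were higher and 11.7% were lower. At an unadjusted p under 0.05 in the same DESeq2 test the counts were 6 higher and 0 lower. The median log2 fold change of the 8 was 0.43, with values from -0.03 to 0.86, and 7 were positive. Over the other 22 tested members, 3 were higher, 2 were lower and the median was 0.05. The difference between these medians was not tested. The exporters were also more abundant, with a median mean of 3561 normalized counts against 649 over the other tested members. More abundant genes were called more often, as given below.

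ABCC2 encodes MRP2, an exporter of glucuronide and glutathione conjugates in the apical membrane of proximal tubule cells and hepatocytes. Its level was 9084 normalized counts in vehicle and 14178 with PT2399. The log2 fold change was 0.64 (SE 0.05, 95% interval 0.55 to 0.73, n = 3 libraries per group), or 156% of vehicle, with a DESeq2 adjusted p of 9.45e-42. This was the smallest p-value of the family. ABCC2 spans chr10:99782640-99852594 and its level per kilobase of transcript ranked 5 among the members.

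ABCB1 encodes P-glycoprotein, a multidrug exporter with a broad range of substrates. It was a modestly represented RNA, with 194.7 normalized counts in vehicle and 352.6 with PT2399. Its log2 fold change of 0.86 (SE 0.17, 95% interval 0.52 to 1.20) had the highest value of the tested members, at 181% of vehicle, with an adjusted p of 1.17e-05. Its interval is wide enough to hold that of ABCC2, so no order between them was shown. ABCB1 lies at chr7:87503017-87713295, and its neighbour ABCB4, the phosphatidylcholine floppase of the bile canaliculus, lies 26989 bases away. ABCB4 had a mean of only 20.7 normalized counts and a log2 fold change of -0.08 (95% interval -1.20 to 1.03).

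ABCC1 encodes MRP1, which exports glutathione conjugates and leukotriene C4. Its level went from 4954 to 6027 normalized counts, a log2 fold change of 0.28 (SE 0.05, adjusted p of 1.21e-06). ABCC5 encodes MRP5, an exporter of organic anions such as cyclic nucleotides. It had 1396 normalized counts in vehicle and 1869 with PT2399, with a log2 fold change of 0.42 (SE 0.08, adjusted p of 1.73e-06).

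ABCC4 encodes MRP4, an apical exporter of cyclic nucleotides, urate and antiviral drugs in the proximal tubule. It was among the most abundant members, at 11009 normalized counts in vehicle and 12219 with PT2399. The log2 fold change was 0.15 (SE 0.05, 95% interval 0.05 to 0.25) with an adjusted p of 0.0157, the smallest change among the called members, and the call was lost at an adjusted p of 0.01. The 4 called C members and ABCB1 were thus 111% to 181% of vehicle.

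ABCC3, which encodes MRP3, the basolateral exporter of glucuronides and bile salts, was not called. Its levels were 10759 and 10546 normalized counts, and the log2 fold change of -0.03 had a 95% interval of -0.15 to 0.09. This interval lies below those of ABCC1, ABCC2 and ABCC5, although the differences between the genes were not tested. ABCC10, or MRP7, had a log2 fold change of 0.43 with an SE of 0.20 and an adjusted p of 0.0994, with levels of 339 and 458 normalized counts. ABCG2, the breast cancer resistance protein that also exports urate, had 73.5 and 113 normalized counts and a log2 fold change of 0.62 with a 95% interval of -0.08 to 1.33 (adjusted p of 0.227). For ABCC10 and ABCG2 the fitted SE was above that of 97.3% and 95.9% of genes of similar mean. ABCC11 was not tested, with a mean of 7.71 normalized counts.

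**Figure D2:**
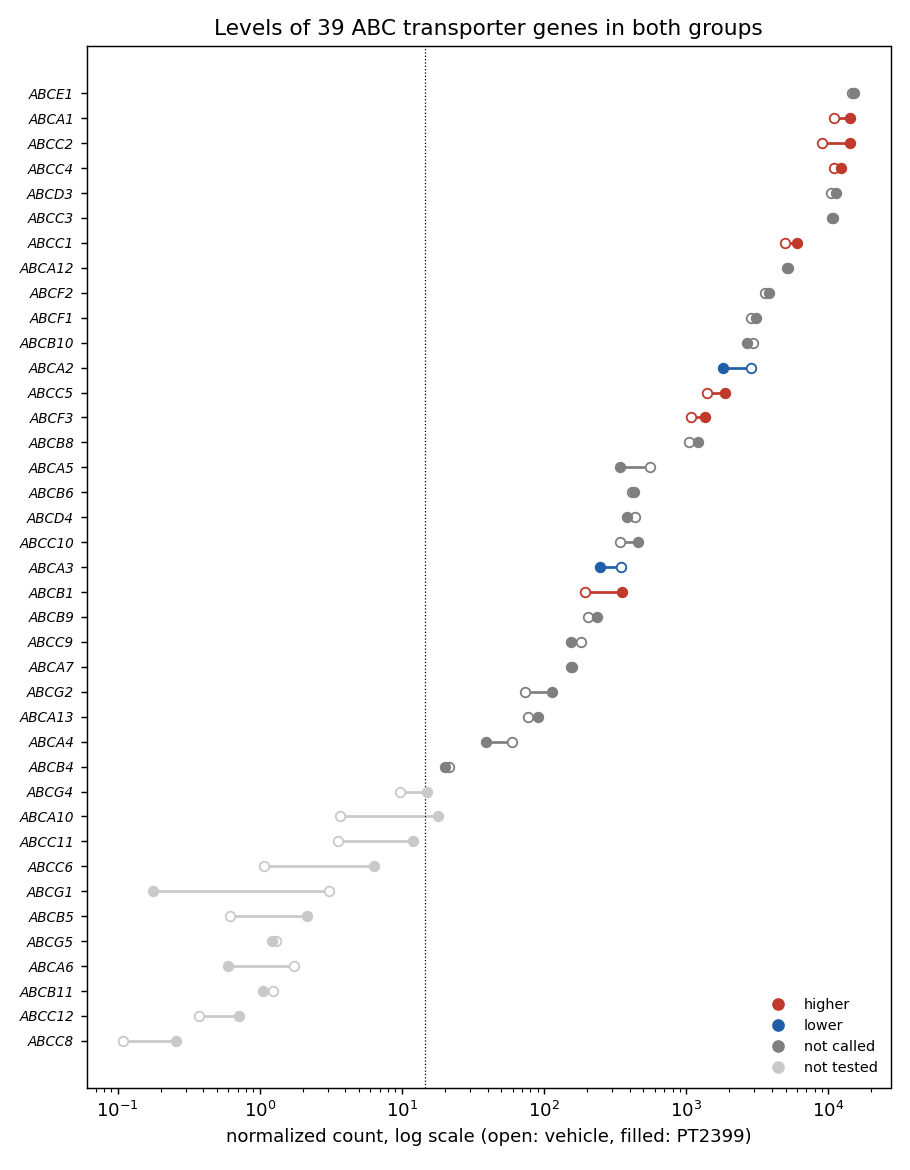
Normalized count on a log axis for 39 members in vehicle (open circles) and PT2399 (filled circles), worked out from the table's mean and fold change, with members ordered by mean and the dotted line at 14.5, the lowest mean of any tested gene. ABCC2 goes from 9084 to 14178 and ABCA2 from 2851 to 1812, while the 11 members below the line were not tested.

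The called lipid and sterol transporters differed in direction. Of the 7 tested, PT2399 left 1 higher and 2 lower, and the median log2 fold change was -0.08 with 4 members not called. Beside these counts, 11.3% of all tested genes were higher and 11.7% were lower. ABCA1, which loads cholesterol and phospholipid onto apolipoprotein A-I, had 10949 normalized counts in vehicle and 14241 with PT2399. With PT2399 it stood at 130% of vehicle, a log2 fold change of 0.38 (SE 0.05, 95% interval 0.29 to 0.47, adjusted p of 8.8e-15).

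ABCA2, a transporter of the endolysosomal membrane linked to sterol and sphingolipid handling, had 2851 normalized counts in vehicle and 1812 with PT2399. The log2 fold change was -0.65 (SE 0.07, 95% interval -0.79 to -0.52, adjusted p of 7.79e-19), leaving 63.6% of vehicle. ABCA3, which in lung packs phospholipid into lamellar bodies, had 346.7 and 245.4 normalized counts. It stood at 70.8% of vehicle, a log2 fold change of -0.50 (SE 0.18, 95% interval -0.85 to -0.15, adjusted p of 0.0258), and the call was lost at an adjusted p of 0.01. ABCA1 and ABCA2 therefore had intervals on opposite sides of 0 with no overlap.

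ABCA5, a lysosomal member, had a log2 fold change of -0.70, close in value to that of ABCA2, but an SE of 0.39 and an adjusted p of 0.198. Its mean was 449 normalized counts, and the median SE of genes of similar mean was 0.13. ABCA7, a phospholipid transporter, had a log2 fold change of -0.02 (95% interval -0.42 to 0.37). ABCA12, which moves glucosylceramide in skin, had 5197 and 5099 normalized counts and a log2 fold change of -0.03 (95% interval -0.15 to 0.09). ABCG1, the partner of ABCA1 in efflux to high-density lipoprotein, ABCG4 and ABCG5 were not tested, with means of 1.61, 12.3 and 1.26 normalized counts.

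The tested A members outside the lipid list were ABCA4 and ABCA13. ABCA4, the retinal flippase of retinylidene-phosphatidylethanolamine, had a log2 fold change of -0.61 with an SE of 1.14 and an adjusted p of 0.774. ABCA13, a very large protein, had a log2 fold change of 0.23 with an SE of 0.29. ABCC9, the sulfonylurea receptor SUR2 of ATP-sensitive potassium channels, had 182 and 154 normalized counts and was not called (log2 fold change -0.24, adjusted p of 0.418). Its channel pores KCNJ8 and KCNJ11 had means of 3.50 and 3.47 normalized counts and were not tested, as was ABCC8, the receptor SUR1, at 0.182.

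None of the 4 members of the mitochondrial list was called, beside 23.0% of all tested genes. At an unadjusted p under 0.05 in the DESeq2 test 1 was higher and 1 lower. ABCB8 had a log2 fold change of 0.19 with an adjusted p of 0.112, and ABCB10, an inner membrane protein needed for heme synthesis in red cell precursors, had one of -0.14 with an adjusted p of 0.145. ABCB6, a porphyrin transporter, had a log2 fold change of 0.05 with an interval of -0.21 to 0.31.

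Of the members in peroxisomes and lysosomes, the values of ABCD3, ABCD4 and ABCB9 are given, with no count for the whole list. ABCD3, the abundant peroxisomal protein PMP70, which imports long and branched chain acids, was at 10477 and 11373 normalized counts with a log2 fold change of 0.12 (95% interval 0.02 to 0.22, adjusted p of 0.0817). It was not called. ABCD4, which releases cobalamin from lysosomes, had a log2 fold change of -0.19 (SE 0.19). ABCB9, a lysosomal peptide transporter, had one of 0.22 (SE 0.18), and neither was called.

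The members without membrane domains were well represented, and 1 of the 4 was called, beside 23.0% of all tested genes. ABCE1, the recycling factor that splits ribosomes after termination, had the highest level per kilobase of any member, at the 95.4th percentile of tested genes with a transcript length. Its levels were 14674 and 15124 normalized counts, with a log2 fold change of 0.04 (95% interval -0.07 to 0.16). ABCF1, which binds the initiation factor eIF2, and ABCF2 had log2 fold changes of 0.12 and 0.11 with adjusted p-values of 0.179 and 0.257. ABCF3 was called higher, from 1081 to 1360 normalized counts, with a log2 fold change of 0.33 (SE 0.09, adjusted p of 0.00347).

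Counts by subfamily are given for A, B, C, E, F and G, so they do not add up to all 8 higher calls. Subfamily C had the most higher calls, where 11.3% of all tested genes were higher and 11.7% were lower. Of its 7 tested members 4 were higher and none lower, and the counts at an unadjusted p under 0.05 in the DESeq2 test were 5 and 0, with a median log2 fold change of 0.28. Subfamily A was the only one with lower calls, 2 of 8 tested, beside 1 higher, and its median was -0.26. In B, 1 of 7 tested was higher and in F 1 of 3, with no lower call in either, and the counts at an unadjusted p under 0.05 were 2 higher and 1 lower in B and 1 higher and 0 lower in F. Subfamilies E and G had 1 tested member each and neither was called, nor was either at an unadjusted p under 0.05. Full transporters gave 6 higher and 2 lower calls among 17 tested. No difference between subfamilies was tested. The subfamilies also differed in abundance, with a median mean of 5490 normalized counts over the tested members of C, 373 in A and 423 in B.

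The members' abundance bears on how readily they could be called. Below a mean of 100 normalized counts, 5.92% of all tested genes and none of 4 members were called. From 100 to 1000 the values were 18.2% of genes and 3 of 11 members, from 1000 to 10000 they were 32.3% and 4 of 9, and above 10000 they were 48.5% and 3 of 6. The 6 most abundant members were ABCE1, ABCA1, ABCC2, ABCC4, ABCD3 and ABCC3, and 3 of these were called, all higher, where 26.1% of all genes in that range were higher.

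**Figure D3:**
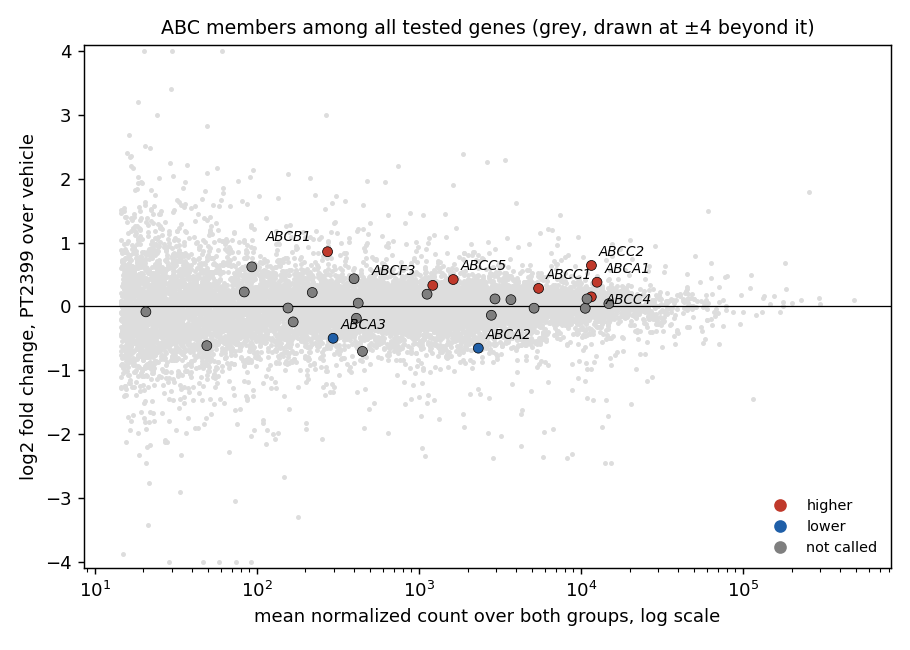
Log2 fold change of PT2399 over vehicle against the mean normalized count on a log axis for all tested genes (grey) and 28 tested members (red for higher, blue for lower, dark grey for not called). The called members have absolute log2 fold changes of 0.15 to 0.86, and none reaches 1.

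The median absolute log2 fold change was 0.46 over the 10 called members and 0.34 over all called genes, and 6 of the 10 lay under a 1.5-fold change. For the 20 members not called, the interval stayed within 0.5 of 0 for 11 and reached past 1 in size for 4, which were ABCA4, ABCA5, ABCB4 and ABCG2. For those 4 the interval also held changes as large in size as that of ABCB1.

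**Figure D4:**
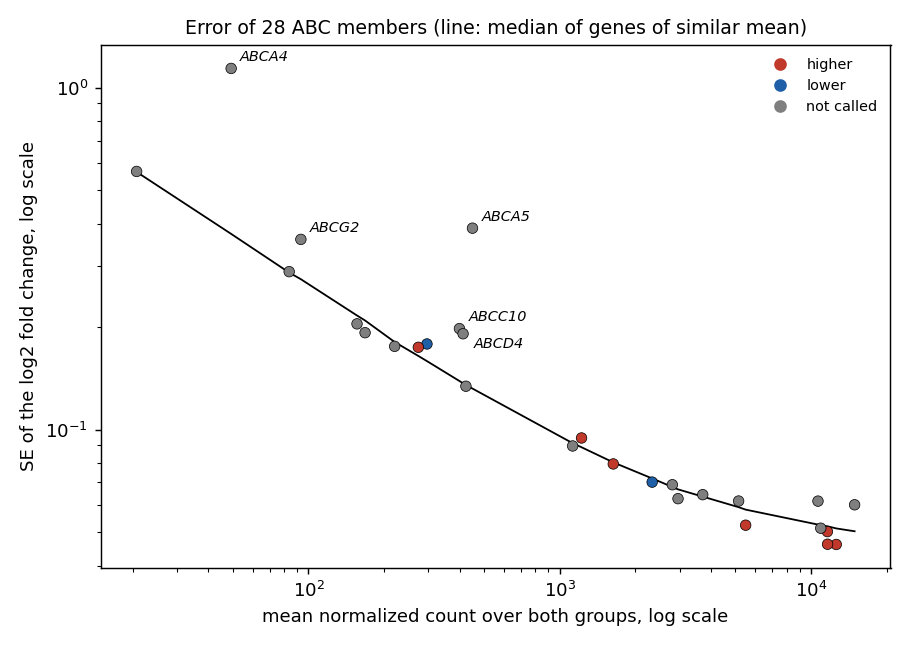
Standard error of the log2 fold change against the mean normalized count, both on log axes, for 28 tested members, with a line for the median of all tested genes of similar mean. ABCA4 (1.14 against 0.37), ABCA5 (0.39 against 0.13) and ABCG2 (0.36 against 0.28) lie above the line.

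Genes that work beside the members were read from lists. Beside each list count, the shares over all tested genes were 11.3% higher and 11.7% lower, and more abundant genes were called more often. Of 10 sterol efflux and liver X receptor genes, 1 was higher and 1 lower. NR1H2, encoding the liver X receptor beta that drives ABCA1 transcription, had a log2 fold change of 0.17 (SE 0.06, adjusted p of 0.0337), and NPC2, a lysosomal cholesterol carrier, one of -0.26 (SE 0.06, adjusted p of 3.73e-04). SREBF1 and NPC1 were not called, with log2 fold changes of -0.09 and 0.11.

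Of 9 tested xenobiotic receptor and conjugation genes, 1 was higher and 2 were lower. AHR, a receptor that induces drug-metabolizing genes, was lower, with a log2 fold change of -0.35 (SE 0.05), as was UGT1A6, a glucuronosyltransferase that shares exons with other UGT1A genes, at -0.19, while GSTK1 was higher at 0.25. NFE2L2, the oxidative stress regulator that drives several ABCC genes, had a log2 fold change of 0.13 and was not called, nor was MGST1, a membrane glutathione transferase, at 0.00. The drug receptors NR1I2 and NR1I3 were not tested, with means of 1.70 and 0.292 normalized counts.

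Among the peroxisome genes, ACSL4 (log2 fold change 0.48) was higher and ACSL1 (-0.21) was lower, both of which activate fatty acids. The import factors PEX19 (0.11) and PEX13 (0.07) were not called. Among the 10 heme and iron-sulfur genes, 4 were higher and none lower. They included ISCU (0.41), ALAS1 (0.25) and NFS1 (0.22), and at an unadjusted p under 0.05 in the DESeq2 test the counts were also 4 and 0. SLC25A37 (0.11), a mitochondrial iron importer, and UROD (-0.02), an enzyme of heme synthesis, were not called. Of 8 ribosome recycling and stalling genes, GCN1 (0.22) and ETF1 (0.19) were higher and 6 were not called, among them the termination factor GSPT1 (0.08) and EIF2S1 (0.00), the alpha subunit of eIF2.

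Several members overlap other genes. The study's methods name a stranded kit for the polysome libraries, but no source used here states whether reads were counted by strand. ABCB4 overlaps CROT over 33899 bases of gene span, introns included. CROT had a mean of 1689 normalized counts against 20.7 for ABCB4, and whether CROT reads entered the ABCB4 count cannot be seen. ABCB1 overlaps RUNDC3B, at a mean of 5.48, and ABCE1 shares 261 bases with ANAPC10, at 699. ABCF2 lies within the readthrough gene ABCF2-H2BK1. ABCC6, which was not tested at a mean of 3.73, has the pseudogene copy ABCC6P1 at 33.0. The other untested members, ABCA6, ABCA10, ABCB5, ABCB11 and ABCC12, had means of 0.546 to 10.8 normalized counts.

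Renal markers were checked beside those of other cell types. All 8 renal and clear cell markers were tested, with PAX8 at a mean of 17472 normalized counts and VIM at 170524. CA9, a HIF target, had a mean of 258 and a log2 fold change of -1.27 (SE 0.17). None of 3 leukocyte markers and none of 3 endothelial markers reached the mean needed for testing, with summed levels of 2.02 and 7.21 normalized counts in vehicle and PT2399 for the former and 8.02 and 21.0 for the latter. Of 3 fibroblast markers COL1A1 alone was tested, at a mean of 209 and with no call.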

How the data were processed

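Polysome-bound RNA was sequenced from 3 PT2399 and 3 vehicle libraries, grouped by their labels. Per the submitters' processing notes, the build was hg38 and the tools were DESeq2 1.22.1, STAR 2.7.3a, bcl2fastq 2.18 and Salmon, for which the sources used here give no version. The deposited table holds no single libraries or depths. Its mean normalized count is a signal the authors computed with DESeq2 over all 6 libraries. The deposited log2 fold change, its SE and the Wald score, their quotient, are the authors' estimates. The deposited p-value is the authors' two-sided Wald test, and the adjusted p-value is their Benjamini-Hochberg adjustment, empty for 14711 rows. These columns were used as deposited because no counts per library were in the table, so p-values measure the spread between 3 libraries per group, described as biological triplicates.

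Reads per library could not be worked out. Low means recurred at 6 values that 1 read would give, but 153 rows lay below the lowest of these (0.140), so normalization was not 1 factor per library. Group levels were worked out from the mean and fold change, and intervals as 1.96 SE either side. Levels per kilobase used GENCODE 44 transcript lengths, matched for 13349 tested genes. Promoter windows, coordinates and biotypes are from RefSeq, GRCh38.p14, with all 41 members matched. The naming rule took every called member and every drug exporter, with, of the partner lists, up to 4 called genes by adjusted p and the 2 most abundant not called. A few genes, 2 of them members, stay in the counts but are not reported here or drawn. Members and lists were chosen with earlier results of these data known. Alternatives were other thresholds, filters, a shifted centre, and protein-coding genes only. Calculations were run with numpy 2.4.6, pandas 2.3.3, scipy 1.17.1 and, for figures, matplotlib 3.10.9 under Python 3.11.15, and were tested on simulated data.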

Additional observations from a re-analysis of the deposited data

How the results depend on the processing

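With Benjamini-Hochberg over every p-value, with the median of abundant genes set to 0 (a shift of 0.0163), or with protein-coding genes only, all 30 tested members kept their call and direction, as did the 26 left by a minimum mean of 100 normalized counts. At an adjusted p of at most 0.01, ABCA3 (log2 fold change -0.50, adjusted p of 0.0258) and ABCC4 (0.15, adjusted p of 0.0157) lost their calls, so the members called lower fell to 1, as did those of subfamily A. Where the log2 fold change also had to be 1 or more in size, the members called higher or lower were 0, and so were the drug exporters called higher and the calls in every subfamily. Both changes follow from the stricter rule. No paired analysis was possible because the table holds no value for a single library, and for the same reason leaving out each replicate in turn was not run. The precision for ABCA4, ABCA5, ABCB4 and ABCG2 is limited (SE 1.14, 0.39, 0.57 and 0.36), and depth per library is unknown.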
